A study of Mus musculus with 40 samples.

Results

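The ERK feedback and ETS target genes read in cardiac fibroblasts were *Dusp4*, *Dusp5*, *Dusp6*, *Spry1*, *Spry2*, *Spry4*, *Spred1*, *Spred2*, *Etv4* and *Etv5*. These 10 genes were chosen by name, with earlier results of these data known. All 10 were among the 25210 genes tested of 55414 in the table. Fibroblasts came from hearts of C57BL/6J mice carrying TAK1fl/fl, in which loxP sites flank part of the TAK1 gene *Map3k7*, and every group shared this genotype. The cells received adenovirus carrying LacZ, the vector control, or iCre, a recombinase that removes the floxed segment, each driven by the CMV promoter that is active in any transduced cell. They were then serum-starved and given no ligand (Con, here unstimulated), bFGF at 20 ng/ml, TGFβ at 10 ng/ml, IL-1β at 15 ng/ml or TNFα at 10 ng/ml for 24 h, with 4 libraries in each of the 10 groups. Before starvation, the cells of all groups had been kept in medium that itself held bFGF at 20 ng/ml, and all were used at passage 1. The question was how far the ligands, and iCre with its removal of the TAK1 segment, moved genes that report on ERK signaling. No group received iCre in cells without floxed alleles. Loss of the segment and any other effect of iCre against LacZ therefore cannot be told apart.

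The ERK cascade runs from receptor tyrosine kinases such as the FGF receptors through RAS, RAF and MEK to the kinases ERK1 and ERK2. Active ERK phosphorylates ETS factors, and its output includes genes whose products act back on the cascade. Among these are the dual-specificity phosphatases that dephosphorylate MAP kinases, the Sprouty proteins that dampen receptor signaling to RAS, and the Spred proteins that bring the RAS inhibitor neurofibromin to the membrane. *Etv4* and *Etv5* encode ETS factors of the PEA3 family and are well-known targets of FGF signaling. RNA levels do not measure kinase activity, and in bulk samples a change in the number of cells expressing a gene and a change in RNA per cell cannot be told apart.

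The genes lie on the mouse genome build GRCm38 at separate loci. The phosphatase genes were *Dusp4* (chr8:34807297-34819894), *Dusp5* (chr19:53529109-53542431) and *Dusp6* (chr10:99263231-99267489), all on the plus strand. The Sprouty genes were *Spry1* (chr3:37639947-37644598, plus), *Spry2* (chr14:105891947-105896819, minus) and *Spry4* (minus). The Spred genes were *Spred1* (chr2:117121374-117182279) and *Spred2* (chr11:19924375-20024026), both plus, and the ETS genes were *Etv4* (chr11:101769742-101785371) and *Etv5* (chr16:22381309-22439719), both minus. All are protein-coding, and the GC content of their exons ranged from 41.2% for *Spred1* to 58.7% for *Etv4*.

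Since the genes are known as ERK and ETS targets, the 300 bases around their start sites (RefSeq, GRCm38.p6; 250 before and 50 after) were searched on both strands for the ETS core motifs AGGAAG and CCGGAAG, the AP-1 motif TGANTCA and the CRE motif TGACGTCA. The ETS motifs share the letters GGAAG, but 1 such run cannot belong to both, since different bases precede it. Of the 10 genes, 7 had an entry, with 8 windows because *Etv5* had 2, while *Dusp4*, *Spry4* and *Etv4* had none. AGGAAG was found in 4 of the 8 windows, those of *Dusp5*, *Dusp6* and *Spred2* and 1 of the 2 of *Etv5*, and in 35.4% of all 32851 windows. CCGGAAG was in none of the 8 windows and in 8.86% of all windows, AP-1 in none and in 7.81%, and CRE in none and in 1.79%. Windows are shown for *Dusp6* and *Etv5*, which rose strongly with bFGF, and for *Spry1*, whose pattern across the groups was the least like that of the others. Of the *Etv5* windows the one with the motif is shown, and the other, chr16:22439521-22439820, which spans the annotated start of the gene, held none of the 4 motifs. Capitals mark AGGAAG or its reverse complement, beginning at -210 in *Dusp6* and 2 in *Etv5*. Position 1 is the start site itself, and negative positions lie before it. No capitals stand in the *Spry1* window, which says only that these letters are not there.
Dusp6 (chr10:99262981-99263280, plus): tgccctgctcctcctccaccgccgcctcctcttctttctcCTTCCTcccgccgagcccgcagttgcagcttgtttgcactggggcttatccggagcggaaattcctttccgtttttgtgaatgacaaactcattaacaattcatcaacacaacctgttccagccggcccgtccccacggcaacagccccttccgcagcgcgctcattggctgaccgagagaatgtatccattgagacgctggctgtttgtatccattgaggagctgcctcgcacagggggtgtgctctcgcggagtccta
Etv5 (chr16:22438319-22438618, minus): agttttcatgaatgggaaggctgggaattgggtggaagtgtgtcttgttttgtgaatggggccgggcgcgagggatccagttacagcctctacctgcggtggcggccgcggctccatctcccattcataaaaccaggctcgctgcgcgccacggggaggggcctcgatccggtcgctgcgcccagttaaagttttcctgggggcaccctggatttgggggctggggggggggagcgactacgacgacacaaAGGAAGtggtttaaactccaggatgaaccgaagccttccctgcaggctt
Spry1 (chr3:37639697-37639996, plus): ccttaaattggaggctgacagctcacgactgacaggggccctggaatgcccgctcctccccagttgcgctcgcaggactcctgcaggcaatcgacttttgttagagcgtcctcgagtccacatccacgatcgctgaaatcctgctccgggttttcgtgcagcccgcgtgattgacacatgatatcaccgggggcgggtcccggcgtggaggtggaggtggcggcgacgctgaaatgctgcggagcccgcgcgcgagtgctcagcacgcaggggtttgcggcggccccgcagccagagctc

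Total counts per library ranged from 25360947 to 66160732, with a median of 36183962. Levels are CPM, read counts scaled to a common library total after adjustment for composition, given for replicates 1 to 4 in that order. Of the targeted gene, *Map3k7*, the mean was lower in iCre than in LacZ fibroblasts under each treatment, from 127 ± 4.27 against 153 ± 6.51 CPM unstimulated to 126 ± 4.07 against 220.0 ± 17.9 CPM with IL-1β (mean ± SD, n = 4). A count over the whole gene includes exons outside the floxed segment, so it does not give the share of recombined alleles. The summed level of 10 fibroblast markers lay between 15350 and 69710 CPM. Of 14 markers of other cells, 13 were tested, and their sum ran from 107 to 1402 CPM, mostly from the pericyte gene *Rgs5* (60.4 to 1366 CPM). The other pericyte gene, *Kcnj8*, reached only 5.73 CPM. The endothelial genes *Pecam1* and *Cdh5* reached 1.32 and 12.4 CPM and the macrophage gene *Lyz2* 129.8 CPM. The macrophage genes *Csf1r* and *Adgre1* reached 13.9 and 5.68 CPM, and the leukocyte gene *Ptprc* 2.08 CPM. Of the cardiomyocyte genes, *Actc1* stayed at or below 0.0887 CPM while *Tnnt2* reached 110.3 CPM, with a median of 6.54 CPM. In unstimulated cells the sum over other-cell markers was 155 to 653 CPM in LacZ and 289 to 935 CPM in iCre, and the sum over fibroblast markers 30430 to 47670 CPM and 20810 to 37000 CPM. The part of either in the differences given here was not tested. Libraries with replicate number 2 stood apart from the rest for these genes, and the counts of called genes were also taken without them. A call means an adjusted p of at most 0.05 by the edgeR quasi-likelihood test over all tested genes, and log2 fold changes are given ± standard error.

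bFGF raised 9 of the 10 genes in LacZ fibroblasts, *Spry4* 13.5-fold, *Etv4* 13.1-fold and *Dusp6* 10.0-fold. The background was 11.6% of all genes called, 7.00% called as higher. The median log2 fold change was 2.11 over the 10 genes and -0.03 over all genes tested.

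Of the phosphatases, *Dusp6*, which encodes a cytoplasmic phosphatase selective for ERK, measured 4.09, 15.0, 4.13 and 5.17 CPM in unstimulated LacZ libraries and 43.2, 87.9, 73.6 and 74.6 CPM with bFGF. The groups did not overlap, although replicate 2 of the unstimulated group was high, and the log2 fold change was 3.32 ± 0.44 (edgeR adjusted p = 0.00215). *Dusp4*, for a nuclear phosphatase, measured 15.3, 20.3, 16.8 and 16.8 CPM unstimulated and 172, 36.6, 142 and 160.0 CPM with bFGF. Replicate 2 was again the exception, here as the lowest bFGF library, and the groups did not overlap (log2 fold change 2.90 ± 0.40, edgeR adjusted p = 0.00246). *Dusp5*, for a nuclear phosphatase specific for ERK, had 1.94, 9.66, 2.79 and 2.64 CPM unstimulated and 7.40, 12.4, 11.8 and 12.0 CPM with bFGF. Its groups overlapped through replicate 2 of the unstimulated group, and it was not called (log2 fold change 1.38 ± 0.46, edgeR adjusted p = 0.0824). With the replicate number in the model, *Dusp5* was called as well (log2 fold change 1.62, edgeR adjusted p = 7.38e-05), where 27.3% of all genes were. Without replicate 2 it was called too (log2 fold change 2.07 ± 0.23, edgeR adjusted p = 0.000222), as were all 10, against a background of 18.2%.

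The Sprouty genes fell into a strong and a weaker response. *Spry4* measured 4.26, 13.2, 5.08 and 6.60 CPM in unstimulated LacZ libraries and 74.3, 102, 119 and 91.9 CPM with bFGF, a large rise (log2 fold change 3.76 ± 0.34, edgeR adjusted p = 0.000491). The bFGF libraries all lay far above the unstimulated ones. *Spry2* had 83.5, 104, 78.5 and 71.1 CPM unstimulated and 183, 217, 192 and 161 CPM with bFGF, with no overlap (log2 fold change 1.18 ± 0.14, edgeR adjusted p = 0.00119). *Spry1* had 86.6, 32.4, 37.7 and 42.9 CPM unstimulated and 164, 92.4, 100.3 and 98.1 CPM with bFGF. Here replicate 1 was the high library in both groups, the groups did not overlap, and the log2 fold change was 1.20 ± 0.31 (edgeR adjusted p = 0.034). *Spry1* was no longer called without replicate 3 or replicate 4, at log2 fold changes of 1.14 and 1.20.

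Both Spred genes rose. *Spred1* had 104, 146, 103 and 108 CPM unstimulated and 295, 273, 351 and 375 CPM with bFGF (log2 fold change 1.51 ± 0.14, edgeR adjusted p = 0.000608). *Spred2* had 34.5, 55.4, 38.5 and 42.1 CPM unstimulated and 89.8, 85.4, 113 and 104 CPM with bFGF (log2 fold change 1.23 ± 0.15, edgeR adjusted p = 0.00156). Both were separated from the unstimulated libraries in all 4 replicates.

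The ETS genes rose as well. *Etv4* had 1.50, 4.50, 1.92 and 2.27 CPM unstimulated and 29.2, 29.7, 32.7 and 39.5 CPM with bFGF (log2 fold change 3.71 ± 0.31, edgeR adjusted p = 0.000413). *Etv5* had 13.4, 33.7, 15.7 and 17.3 CPM unstimulated and 123, 120.4, 158 and 115 CPM with bFGF (log2 fold change 2.71 ± 0.27, edgeR adjusted p = 0.000636). In both, replicate 2 of the unstimulated group was the highest of its group and still below every bFGF library.

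Levels of different genes can be set side by side only per kilobase of exon. On that scale *Spry2* was the highest of the 10 in unstimulated LacZ fibroblasts at 40.4 ± 6.83 CPM per kilobase (SD, n = 4) and *Etv4* the lowest at 0.820 ± 0.432. With bFGF *Spry2* remained the highest at 90.2 ± 11.2 CPM per kilobase, *Spred1* stood at 47.7 ± 7.01 and *Dusp4* at 46.6 ± 22.6. *Dusp5* was then the lowest, at 4.40 ± 0.945 CPM per kilobase.

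**Figure D1:**
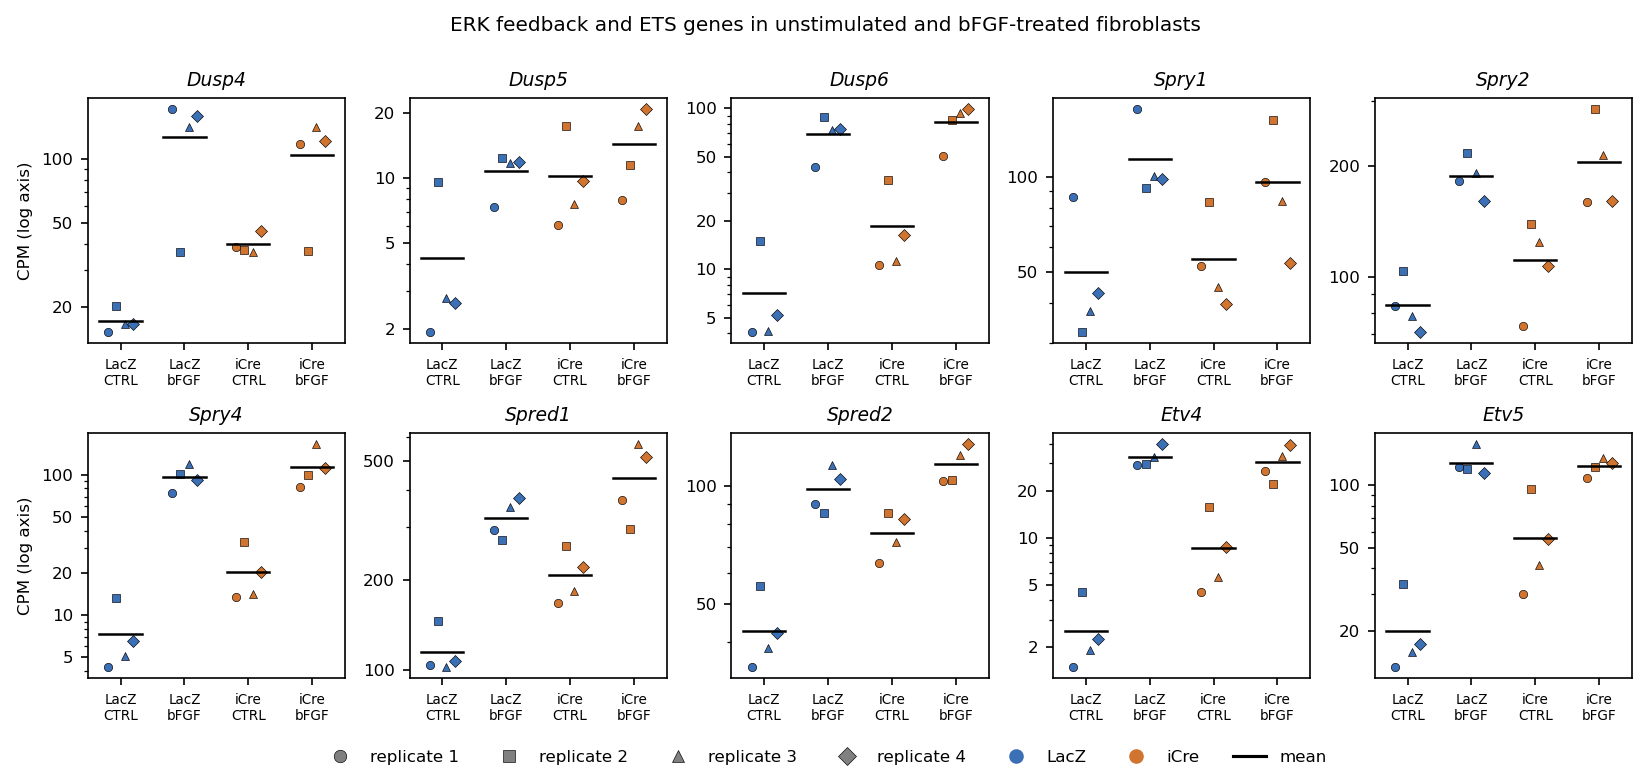
Level of each of the 10 genes (CPM, log axis) in unstimulated (CTRL) and bFGF-treated fibroblasts with LacZ (blue) or iCre (orange). Each symbol is a library, its shape gives the replicate number, and bars are means over 4 libraries. The unstimulated iCre means lie above the unstimulated LacZ means for each gene, by little for *Spry1*. With bFGF the iCre and LacZ means lie closer together for each gene except *Spry1*. They are furthest apart for *Spred1*, at 436.8 CPM in iCre and 323.5 CPM in LacZ.

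In iCre fibroblasts, bFGF raised 5 of the 10 genes, *Dusp6*, *Spry4*, *Spred1*, *Spred2* and *Etv4*. The background was 2.42% of genes called, and 1.79% called as higher. *Spry4* measured 13.6, 33.5, 14.3 and 20.2 CPM unstimulated and 81.5, 100.1, 165 and 111 CPM with bFGF (log2 fold change 2.50 ± 0.32, edgeR adjusted p = 0.0162). *Dusp6* measured 10.6, 35.9, 11.3 and 16.4 CPM unstimulated and 50.4, 84.9, 93.9 and 98.8 CPM with bFGF (log2 fold change 2.15 ± 0.39, edgeR adjusted p = 0.0254). *Etv4* measured 4.52, 15.6, 5.60 and 8.79 CPM unstimulated and 26.6, 22.2, 33.6 and 39.2 CPM with bFGF (log2 fold change 1.83 ± 0.36, edgeR adjusted p = 0.0351). The groups did not overlap for 7 of the 10 genes, these 3 among them, nor for 5.95% of all genes with the bFGF group higher. In each of the 3 the unstimulated library closest to the bFGF group was replicate 2. *Spred1* rose from 208 ± 41.2 to 437 ± 125 CPM (mean ± SD, n = 4, log2 fold change 1.08 ± 0.22) and *Spred2* from 75.8 ± 9.96 to 114 ± 12.3 CPM (0.59 ± 0.12). Not called, with higher means in the bFGF group, were *Dusp4* (1.41 ± 0.34, edgeR adjusted p = 0.063), *Etv5* (1.16 ± 0.30), *Spry2* (0.89 ± 0.23) and *Spry1* (0.81 ± 0.31). *Dusp5* was the least separated gene, with 6.06, 17.6, 7.62 and 9.70 CPM unstimulated and 7.98, 11.5, 17.4 and 20.9 CPM with bFGF (log2 fold change 0.51 ± 0.37, edgeR adjusted p = 0.532). Its replicate 2 went down where the other replicates went up. Once the replicate number was in the model, 9 genes were called, *Dusp5* being the exception, against a background of 16.7%. The count was also 9 without replicate 2, against a background of 12.7%. Without replicate 1, 3 or 4 it was 0, as it was for all genes tested.

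Unstimulated fibroblasts already differed between the viruses. The median log2 difference, iCre against LacZ, was 1.22 over the 10 genes and -0.03 over all genes tested, and all 10 values were above 0. *Etv4* had the largest, 1.76 ± 0.44, from 2.55 ± 1.34 CPM in LacZ to 8.64 ± 5.01 CPM in iCre (mean ± SD, n = 4). *Spry4* followed at 1.48 ± 0.39 and *Etv5* at 1.47 ± 0.38, and *Spry1* had the smallest, 0.13 ± 0.33. In *Etv4*, *Spry4*, *Spred1*, *Spred2* and *Dusp4* the lowest iCre library lay above the highest LacZ library, as it did in 4.34% of all genes. The margin was very small in *Etv4* (4.52 against 4.50 CPM) and *Spry4* (13.55 against 13.22 CPM). Only *Dusp4* was called among the 10, with 15.3 to 20.3 CPM in LacZ libraries, and in iCre 38.6, 37.2, 36.6 and 46.0 CPM (log2 fold change 1.19 ± 0.11, edgeR adjusted p = 0.0128), against a background of 0.0754%. At an unadjusted p under 0.05, 8 of the 10 passed, and 14.0% of all genes did.

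Within same-numbered replicates the spread of this difference varied between the genes. In *Etv4* the log2 ratio of iCre to LacZ was 1.59, 1.80, 1.55 and 1.96 in replicates 1 to 4. In *Dusp6* it was 1.38, 1.26, 1.46 and 1.67, although the unstimulated LacZ level of *Dusp6* itself ran from 4.09 to 15.0 CPM. In *Spry4* it was 1.67, 1.34, 1.49 and 1.61, and in *Etv5* 1.17, 1.52, 1.40 and 1.67. In *Dusp5*, whose unstimulated LacZ level ran from 1.94 to 9.66 CPM, the ratio was 1.64, 0.86, 1.45 and 1.88, lowest in replicate 2. *Spry2* had -0.18, 0.42, 0.67 and 0.59, and *Spry1* had -0.73, 1.36, 0.25 and -0.11, with no common direction in either. In all, 8 of the 10 genes were higher in iCre in 4 of 4 pairs, which 14.6% of all genes were, and the exceptions were *Spry1* and *Spry2*. A model with the replicate number called 9 genes, all but *Spry1*, against a background of 14.5%. Without replicate 2, 8 genes were called, all but *Spry1* and *Spry2*, against a background of 2.78%. Without replicate 3 or replicate 4, 0 were, as for all genes tested. DESeq2 called 6, against 5.43% of all genes.

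With bFGF present, the levels of the 10 genes in iCre and LacZ fibroblasts overlapped in every case, and over all genes 6.22% did not overlap. The median log2 difference was 0.17, and single values ran from -0.29 ± 0.48 for *Dusp4* to 0.43 ± 0.20 for *Spred1*. None was called by edgeR, which called 0% of all genes, or by DESeq2, which called 1.95%. None passed an unadjusted p under 0.05 in edgeR, as 10.3% of all genes did. *Etv5*, for example, averaged 129 ± 19.4 CPM in LacZ and 124 ± 11.4 CPM in iCre, and *Etv4* 32.8 ± 4.75 and 30.4 ± 7.50 CPM (mean ± SD, n = 4). Their log2 differences were -0.06 ± 0.12 and -0.11 ± 0.18. Higher in iCre in 4 of 4 pairs were *Spred1* and *Spred2*, as were 14.7% of all genes. In the model with replicate number *Spred1* alone was called (log2 fold change 0.40, edgeR adjusted p = 0.002), where 13.9% of all genes were.

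**Figure D2:**
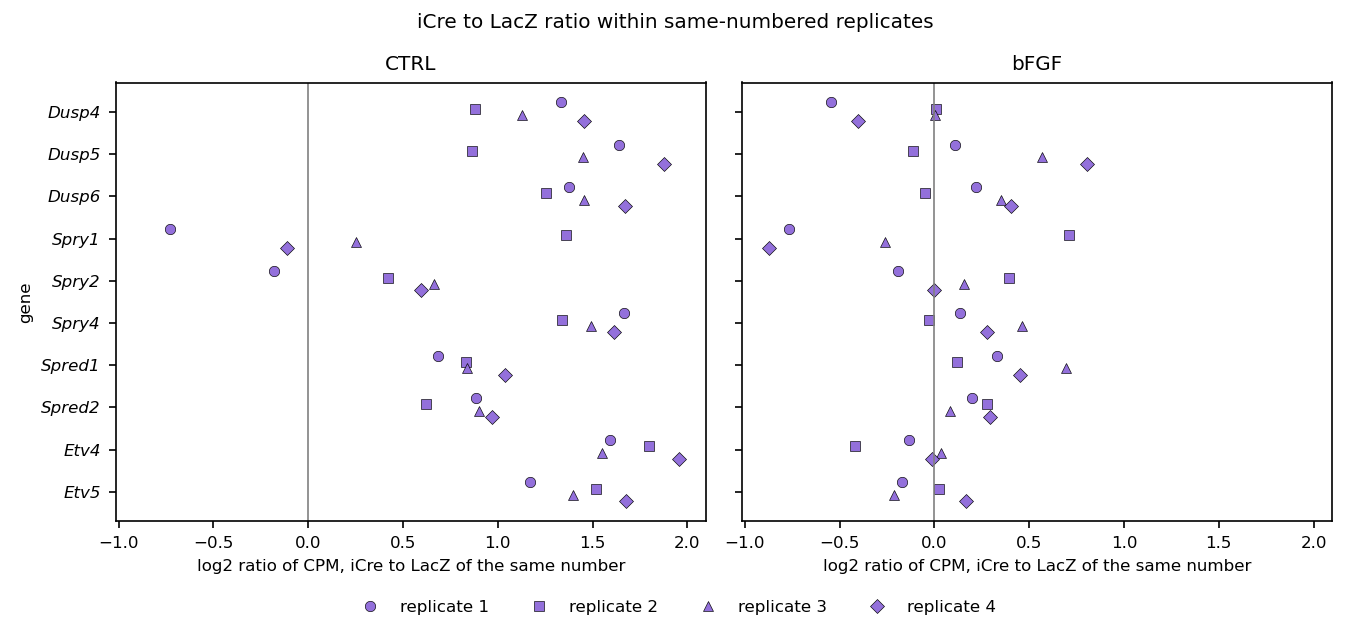
Log2 ratio of CPM in iCre to LacZ fibroblasts within each replicate number for the 10 genes, unstimulated (left) and with bFGF (right). Each symbol is 1 pair of libraries and the grey line marks no difference. Unstimulated, the 4 pairs of *Etv4* lie between 1.55 and 1.96, and with bFGF between -0.42 and 0.04.

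Whether the response to bFGF differed between the viruses was tested directly by the interaction of virus and ligand over 16 libraries. The estimated bFGF fold change was smaller in iCre for all 10 genes, with a median interaction of -1.01 on the log2 scale against 0.03 over all genes tested. The largest were -1.87 ± 0.50 for *Etv4*, -1.53 ± 0.43 for *Etv5* and -1.48 ± 0.55 for *Dusp4*. None of the 10 passed the adjusted threshold in edgeR or DESeq2, each of which called 0% of all genes. At an unadjusted p under 0.05 in edgeR 5 passed, and 3.03% of all genes did. Without replicate 2, *Dusp4* was called (log2 interaction -1.62, edgeR adjusted p = 0.0019), where 0.00397% of all genes were. The interaction, the unstimulated difference and the bFGF response in iCre share the unstimulated iCre libraries and are not independent of one another.

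TGFβ, which signals through Smad proteins as well as TAK1, moved the genes in different directions. In LacZ fibroblasts 4 were called, against a background of 36.9%, so the share of the 10 was near that of all genes. *Etv4* rose from 2.55 ± 1.34 to 7.48 ± 3.65 CPM (log2 fold change 1.59 ± 0.44, edgeR adjusted p = 0.0165). *Dusp4* rose from 17.3 ± 2.09 to 43.9 ± 19.4 CPM and *Spred2* from 42.6 ± 9.10 to 69.2 ± 15.3 CPM. *Spry2* fell, from 83.5, 104, 78.5 and 71.1 CPM to 58.9, 42.3, 61.1 and 47.4 CPM, with no overlap (log2 fold change -0.66 ± 0.15, edgeR adjusted p = 0.00501). *Dusp6* and *Etv5*, which rose with bFGF, had log2 fold changes of 0.16 ± 0.42 and 0.09 ± 0.34 with TGFβ. In both genes replicate 2 went down, with log2 ratios of -0.34 and -1.71, while the other replicates went up. The model with replicate number called 7 (background 42.0%). All 10 were called without replicate 2, where 37.1% of all genes were, and *Etv4* then stood at 2.26. Without replicate 3 or 4 only *Dusp4* and *Spry2* were, against 25.9% and 26.9% of all genes.

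In iCre fibroblasts 3 of the genes were called with TGFβ (background 37.4%), so the share of the 10 was again near that of all genes. *Spry2* fell from 73.6, 139.7, 125 and 107 CPM to 33.4, 69.5, 25.5 and 25.6 CPM, with no overlap (log2 fold change -1.51 ± 0.32, edgeR adjusted p = 0.00359). *Spred1* fell from 168, 259.9, 183 and 221 CPM to 72.3, 74.7, 83.1 and 99.9 CPM, again with none (log2 fold change -1.32 ± 0.15, edgeR adjusted p = 6.78e-05). *Dusp4* rose from 39.6 ± 4.35 to 80.7 ± 33.9 CPM (edgeR adjusted p = 0.0172). *Spred1* was the one gene whose TGFβ response differed between the viruses by the interaction test, since it had a log2 fold change of 0.11 ± 0.12 in LacZ (log2 interaction -1.45 ± 0.21, edgeR adjusted p = 0.000464, background 4.51%). That call held without any 1 of the replicate numbers, at -1.42 to -1.46, and after the GC correction described with the iCre comparison, at -1.04. Without replicate 2, *Spry2* and *Spry4* had called interactions as well, at -1.40 and -1.06 (background 5.27%), and after GC correction the background was 0.717%. For TGFβ in iCre the model with replicate number called 7 genes (background 41.5%), and 6 were called without replicate 2 (background 40.0%). Without replicate 1, 3 or 4 only *Spry2* and *Spred1* were called (backgrounds 30.2%, 27.0% and 28.6%).

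IL-1β raised 7 of the genes in LacZ fibroblasts, where 20.7% of all genes were called. *Dusp6* rose from 7.10 ± 5.30 to 22.3 ± 1.17 CPM, with 21.0, 22.0, 22.4 and 23.8 CPM in the IL-1β libraries, which lay above every unstimulated library (log2 fold change 1.68 ± 0.37, edgeR adjusted p = 0.0104, and 2.33 without replicate 2). *Spry4* rose by 1.33 ± 0.31 on the log2 scale, *Etv4* by 1.24 ± 0.33, *Etv5* by 0.96 ± 0.25 and *Spred2* by 0.92 ± 0.13. *Spry2* and *Spred1* rose by 0.40 ± 0.12 and 0.36 ± 0.11. *Dusp5* and *Spry1* went to lower means without being called (log2 fold changes -0.63 ± 0.46 and -0.34 ± 0.42). Without replicate 1, 3 or 4 only *Spred2* was called among the 10, against 13.6%, 9.52% and 9.22% of all genes. The model with replicate number called 8 (background 33.5%), adding *Spry1* as lower at -0.41. In iCre fibroblasts 1 gene was called, *Dusp4* (log2 fold change 0.72 ± 0.18, edgeR adjusted p = 0.0198), against 16.3% of all genes. The share of the 10 was thus not above that of all genes. At an unadjusted p under 0.05, 8 passed, and 28.5% of all genes did. All 10 were called there in the model with replicate number (background 33.8%), 8 as higher, with *Spred1* and *Spry1* lower at -0.42 and -0.47. Without replicate 2, 7 were called (background 18.1%). None was without replicate 1, 3 or 4 (backgrounds 6.85%, 7.55% and 8.74%) or after the GC correction (background 9.61%). The IL-1β response differed between the viruses for *Spred1* (log2 interaction -0.80 ± 0.20, edgeR adjusted p = 0.02) and *Spred2* (-0.60 ± 0.18, edgeR adjusted p = 0.0487), against a background of 7.71%. In the model with replicate number 4 differed (background 16.9%), *Dusp4* and *Dusp5* joining with positive values of 0.59 and 1.47. After GC correction *Spred1* was not called, at -0.43 (background 3.79%). The count was 5 without replicate 2 (background 6.85%) and 0 without replicate 1, 3 or 4 (backgrounds 3.67%, 2.37% and 3.38%).

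With TNFα in LacZ fibroblasts 2 of the genes were called, both as higher, against 21.3% of all genes. The share of the 10 was thus near that of all genes. *Spred1* went from 104, 146, 103 and 108 CPM to 177, 169, 178 and 191 CPM (log2 fold change 0.64 ± 0.11, edgeR adjusted p = 0.0028), and *Spred2* rose by 0.65 ± 0.13. *Etv5* averaged 20.0 ± 9.26 CPM without and 19.7 ± 1.75 CPM with TNFα. Its log2 ratios within same-numbered pairs were 0.56, -0.91, 0.27 and 0.36 in order of replicate number, and without replicate 2 it was called as higher. The model with replicate number called 5 genes (background 35.5%), *Dusp6*, *Etv4*, *Spred1* and *Spred2* as higher and *Spry1* as lower. Without replicate 2, 7 were called (background 23.5%), and without replicate 3 or 4 only *Spred1* was (backgrounds 10.5% and 10.8%).

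In iCre fibroblasts TNFα raised 5 of the genes and lowered *Spry1*, where 27.0% of all genes were called. *Etv4* rose from 4.52, 15.6, 5.60 and 8.79 CPM to 23.0, 65.4, 52.7 and 62.9 CPM, with no overlap between groups (log2 fold change 2.60 ± 0.43, edgeR adjusted p = 0.00182). *Dusp6* rose by 1.96 ± 0.46 on the log2 scale, *Dusp5* by 1.45 ± 0.39, *Dusp4* by 1.16 ± 0.19 and *Spred2* by 0.69 ± 0.13. *Spry1* fell, from 52.2, 83.3, 44.9 and 39.7 CPM to 42.5, 13.2, 10.4 and 7.52 CPM. Replicate 1 of the TNFα group was the high library and overlapped the unstimulated group (log2 fold change -1.55 ± 0.50, edgeR adjusted p = 0.0465). *Spry1* was called without replicate 1 (-2.40) and not without replicate 2, 3 or 4 (-1.14, -1.44 and -1.44). Without replicate 3 or 4, 3 of the 10 were called (backgrounds 14.0% and 16.5%). The model with replicate number called 8 (background 36.1%), adding *Etv5* and *Spry4* as higher. The response differed between the viruses for *Etv4* alone (log2 interaction 1.92 ± 0.61, edgeR adjusted p = 0.0419, background 16.1%), and it was not called after GC correction, at 1.70 (background 11.9%), or without replicate 2, 3 or 4, at 1.65, 1.73 and 2.16. In the model with replicate number 4 were called (background 25.1%), *Etv4*, *Dusp4* and *Dusp5* with positive values and *Spry1* with a negative one.

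**Figure D3:**
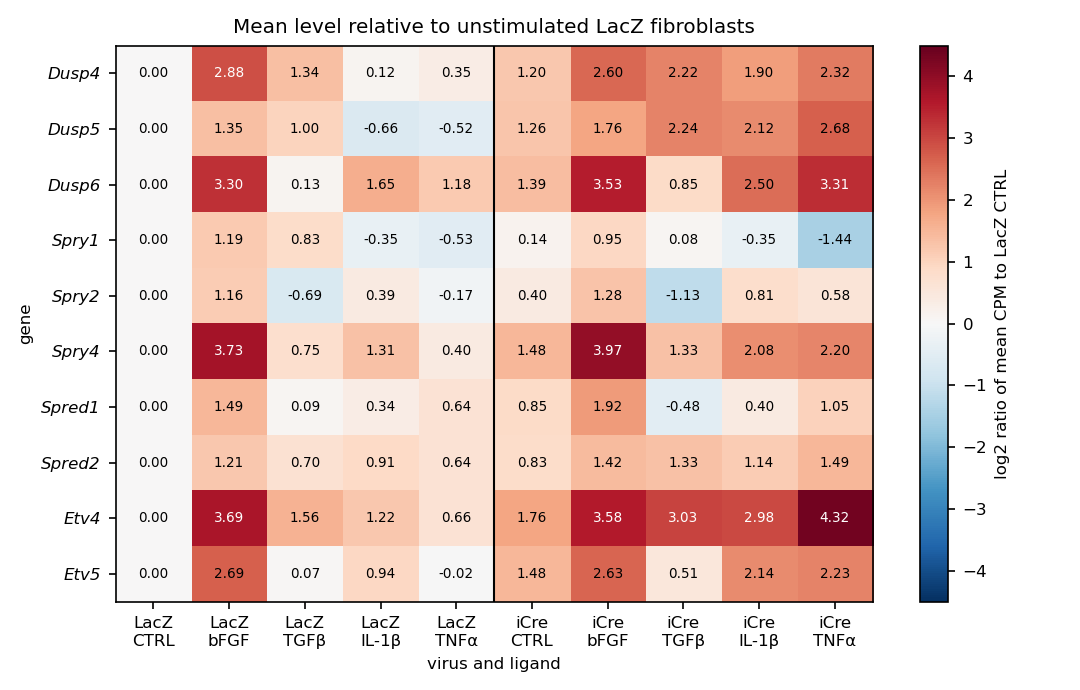
Mean CPM of each gene in the 10 groups as the log2 ratio to the unstimulated LacZ mean, from lower (blue) to higher (red). Both bFGF groups are higher than unstimulated LacZ for each gene, from 0.95 for *Spry1* to 3.97 for *Spry4* in iCre, and with TNFα in iCre *Etv4* stands at 4.32 and *Spry1* at -1.44.

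Between the viruses with TNFα, 8 of the 10 genes were called, all higher in iCre, where 27.3% of all genes were called and 14.8% were called as higher. *Etv4* measured 3.70, 2.97, 3.01 and 6.44 CPM in LacZ libraries, against 23.0, 65.4, 52.7 and 62.9 CPM in iCre, a 12.9-fold difference (log2 fold change 3.68 ± 0.37, edgeR adjusted p = 0.000189). *Dusp5* measured 1.83, 4.44, 2.63 and 2.96 CPM in LacZ libraries, against 13.3, 37.2, 22.3 and 36.6 CPM in iCre, a 9.36-fold difference (log2 fold change 3.23 ± 0.37, edgeR adjusted p = 0.000335). In both genes the groups were far apart, and replicate 1 was the lowest iCre library. *Etv5* measured 19.7, 18.0, 19.0 and 22.1 CPM in LacZ libraries, against 67.7, 104, 106 and 97.9 CPM in iCre (log2 fold change 2.27 ± 0.15, edgeR adjusted p = 4.48e-05). *Dusp6* was higher by 2.15 ± 0.31 on the log2 scale, *Dusp4* by 1.99 ± 0.28, *Spry4* by 1.82 ± 0.21, *Spred2* by 0.87 ± 0.11 and *Spry2* by 0.77 ± 0.17. *Spry1* alone had a lower mean in iCre, 18.4 ± 16.2 against 34.6 ± 16.5 CPM (mean ± SD, n = 4), lower in 4 of 4 pairs but not called (log2 fold change -0.89 ± 0.53, edgeR adjusted p = 0.26). *Spred1* was not called either, at 0.43 ± 0.19. *Spry1* was called as lower in the model with replicate number (-1.11, background 32.2%) and without replicate 1 (-1.38). In these groups the summed fibroblast markers were 25800 to 34600 CPM in LacZ and 15350 to 23390 CPM in iCre. Markers of other cells summed to 107 to 429.8 CPM and 312 to 1206 CPM, and their part in the differences was not tested.

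With IL-1β, 6 of the 10 were called, again all higher in iCre, where 16.1% of all genes were called and 7.14% were called as higher. *Dusp5* measured 2.15, 3.48, 2.35 and 2.82 CPM in LacZ libraries, against 14.6, 20.6, 15.6 and 23.3 CPM in iCre, without overlap (log2 fold change 2.76 ± 0.20, edgeR adjusted p = 4.37e-05). *Dusp4* measured 20.1, 14.3, 19.4 and 21.4 CPM in LacZ libraries, against 77.1, 42.0, 67.9 and 70.8 CPM in iCre (log2 fold change 1.76 ± 0.20, edgeR adjusted p = 0.000331). *Etv4* was higher by 1.74 ± 0.26 on the log2 scale, *Etv5* by 1.18 ± 0.14, *Dusp6* by 0.84 ± 0.14 and *Spry4* by 0.76 ± 0.16. The uncalled genes were *Spry1*, *Spry2*, *Spred1* and *Spred2*, with log2 differences between -0.02 ± 0.39 and 0.40 ± 0.15. *Spry2* and *Spred2* were called as higher in the model with replicate number (0.38 and 0.22, background 29.5%). In these groups the summed fibroblast markers were 36620 to 69710 CPM in LacZ and 22850 to 35690 CPM in iCre, which did not overlap. Markers of other cells summed to 290.1 to 907 CPM and 404 to 999 CPM, and the part of either in the differences was not tested.

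With TGFβ, 2 genes were called, where 8.37% of all genes were. *Dusp5* was higher in iCre (20.1 ± 10.0 against 8.53 ± 0.979 CPM, log2 fold change 1.21 ± 0.29, edgeR adjusted p = 0.0294). *Spred1* was lower, with 117, 106, 131 and 135 CPM in LacZ libraries, against 72.3, 74.7, 83.1 and 99.9 CPM in iCre, which did not overlap (log2 fold change -0.60 ± 0.12, edgeR adjusted p = 0.0134). Modelled with the replicate number, all 10 were called (background 20.8%), 7 as higher and *Spred1*, *Spry1* and *Spry2* as lower. Leaving out replicate 3 left 0 called (background 2.01%), leaving out replicate 1 or 4 left 1 (backgrounds 4.71% and 2.48%), and leaving out replicate 2 left 7 (background 12.5%).

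A property of the libraries ran along with these 3 comparisons. In iCre fibroblasts given a ligand other than bFGF (12 libraries), gene levels increased with the GC content of the gene by 0.20 to 0.34 on the log2 scale per 10% GC, whereas the slope was -0.25 to 0.0033 in the other 28 libraries. After this trend was removed from each library, 0 of the 10 genes were called with TGFβ (background 1.12%), 7 with IL-1β (background 9.49%) and 9 with TNFα (background 22.4%), the called ones all higher in iCre. *Spred1*, the gene with the lowest GC content of the 10, moved most. Its log2 difference went from -0.60 to -0.13 with TGFβ, from 0.04 to 0.50 with IL-1β and from 0.43 to 0.90 with TNFα. *Etv4*, the gene with the highest GC content, went from 3.68 to 3.42 with TNFα. In unstimulated and bFGF libraries the correction changed the differences of the 10 genes little, for example from 1.76 to 1.74 in unstimulated *Etv4*.

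**Figure D4:**
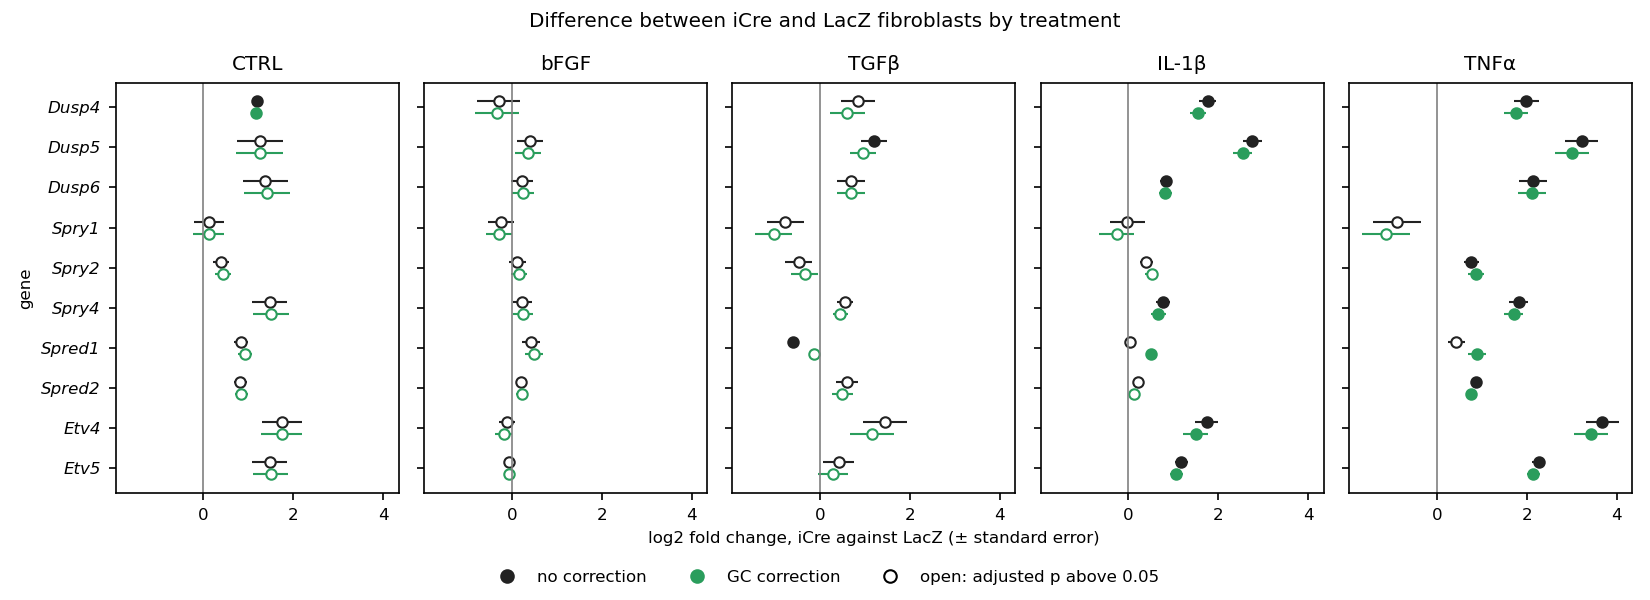
Log2 fold change of iCre against LacZ fibroblasts (± standard error) for the 10 genes under each treatment, without (black) and with (green) the GC correction; filled symbols had an adjusted p of at most 0.05 and open symbols did not. With bFGF the uncorrected values lie between -0.29 and 0.43, with TNFα *Etv4* reaches 3.68, and *Spred1* shifts upwards after correction with TGFβ, IL-1β and TNFα.

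Across the 10 groups, 7 genes had their highest mean in a bFGF group, and *Dusp5*, *Spred2* and *Etv4* had it in iCre with TNFα. The lowest mean was in unstimulated LacZ for *Dusp4*, *Dusp6*, *Spry4*, *Spred2* and *Etv4*. It was in iCre with TGFβ for *Spry2* and *Spred1*, in iCre with TNFα for *Spry1*, in LacZ with IL-1β for *Dusp5* and in LacZ with TNFα for *Etv5*. When the groups were put in order of their means, 10 of the 90 neighbouring steps separated groups whose libraries did not overlap, against 3.28% of such steps over all genes tested. One of these steps lay between the bFGF groups and all others in *Spry4*, where the lowest bFGF library had 74.3 CPM and the highest other library 41.9 CPM. *Etv5* had such a step too, from 109 CPM in the lowest bFGF library to 106 CPM in the highest iCre library with TNFα.

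Replicate 2 was not simply high or low. In both unstimulated groups it was above the other 3 libraries for 9 of the 10 genes. *Dusp6*, for instance, had 15.0 CPM there against 4.09 to 5.17 CPM in LacZ, and 35.9 CPM against 10.6 to 16.4 CPM in iCre. *Dusp4* went the other way under stimulation. It was below the other 3 libraries in 8 of the 10 groups, at 36.6 and 36.8 CPM with bFGF in LacZ and iCre, where the others lay between 118 and 172 CPM. *Spry2* in replicate 2 was above the others in 8 groups, and *Spry1* below them in 6. The library numbers in the labels ran from 31 to 40 for replicate 1 and from 51 to 80 for the other replicates. Each group held 1 library of the first series, so the comparisons without replicate 1 are the values within the second.

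**Figure D5:**
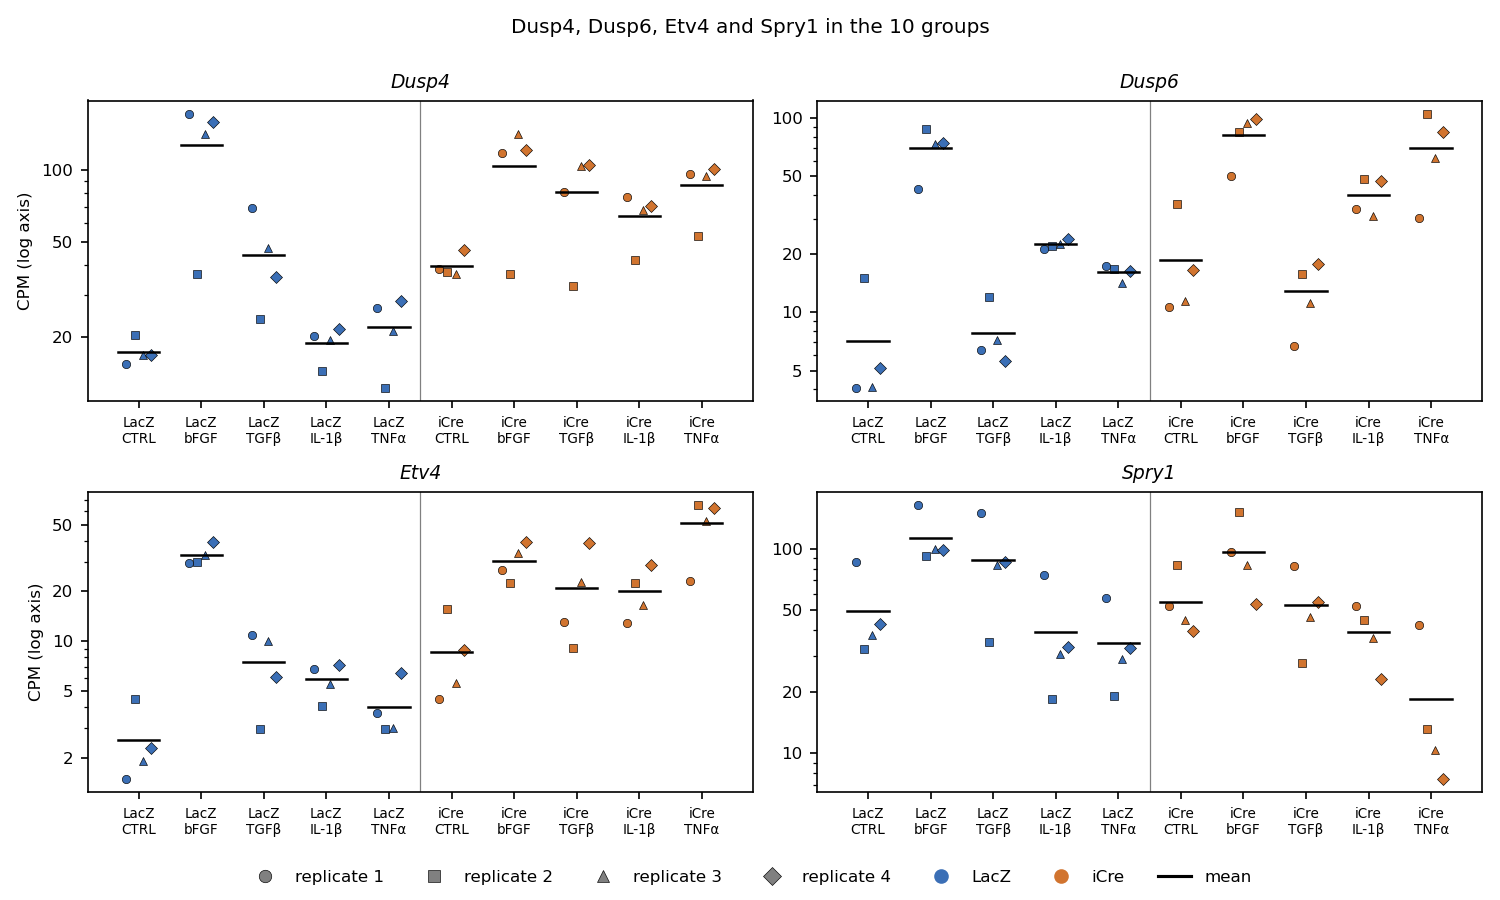
Level of *Dusp4*, *Dusp6*, *Etv4* and *Spry1* (CPM, log axis) in each of the 40 libraries by group. Shapes give the replicate number, colours the virus, and bars are means over 4 libraries. Replicate 2 (squares) is the lowest *Dusp4* library in 8 of the 10 groups but the highest *Dusp6* library in both unstimulated groups, and *Spry1* falls with TNFα in iCre in replicates 2 to 4 more than in replicate 1.

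Over the 40 libraries the genes did not form a single pattern. Pearson's r of log2 CPM, given as a description of libraries that share groups and depth, was highest for *Spry4* with *Etv5* at 0.91 and *Spred2* with *Etv4* at 0.91. *Etv4* had a median r of 0.83 with the other 9 genes, *Etv5* 0.76, *Spry4* 0.75 and *Dusp6* 0.75. *Spry2* had a median r of 0.39 and *Spry1* of 0.10, with values for *Spry1* from -0.14 with *Dusp5* to 0.29 with *Spry4*. Among 13090 genes, those with the highest r to *Dusp6* were *Spred3*, *Tor4a* and *Hmga2* (0.92, 0.91 and 0.90). For *Etv5* they were *Trib2*, *Spry4* and *Ubash3b* (0.93, 0.91 and 0.91), and for *Spry2* they were *Eps8*, *Smad3* and *Etv1* (0.91, 0.89 and 0.88).

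The kinases and adaptors of the cascade itself made a list of 20 genes, from *Grb2* to *Nf1*, and all were tested. With bFGF in LacZ fibroblasts 4 of the 20 were called, against 11.6% of all genes, and the median log2 fold change was 0.04. *Map2k1*, which encodes the kinase MEK1, rose from 89.6 ± 9.09 to 131 ± 14.1 CPM (log2 fold change 0.56 ± 0.11, edgeR adjusted p = 0.0113). *Gab1*, for a docking protein, fell from 54.1 ± 12.5 to 28.6 ± 6.39 CPM (log2 fold change -0.90 ± 0.19, edgeR adjusted p = 0.0159). The scaffold gene *Ksr1* and the FGF receptor substrate gene *Frs2* fell by 0.58 ± 0.16 and 0.44 ± 0.11 on the log2 scale. These calls were lost without replicate 3 or 4, when 0 of the 20 were called (backgrounds 1.32% and 2.48%). The count was 2 without replicate 1 (background 4.84%), 8 without replicate 2 (background 18.2%) and 8 in the model with replicate number (background 27.3%). In iCre fibroblasts bFGF changed 0 of the 20 by edgeR, where 2.42% of all genes were called. Of the 20, 4 passed an unadjusted p under 0.05 (background 16.7%), 5 were called with the replicate number in the model (background 16.7%), 5 without replicate 2 (background 12.7%) and 2 by DESeq2 (background 8.09%).

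Between the viruses 0 of the 20 cascade genes were called unstimulated and 0 with bFGF, with 2 and 3 at an unadjusted p under 0.05 (backgrounds 14.0% and 10.3%). With the replicate number in the model 4 were called unstimulated and 2 with bFGF (backgrounds 14.5% and 13.9%), and DESeq2 called 1 in each (backgrounds 5.43% and 1.95%). The counts for the other comparisons are followed in parentheses by their lowest and highest over 12 alternative fits, filters and sets of libraries. Between the viruses with TGFβ 0 were higher in iCre (0 to 3) and 6 lower (0 to 8), where 8.37% of all genes were called (1.12% to 20.8%). With IL-1β 1 was higher (0 to 3) and 5 lower (1 to 10), against 16.1% of all genes (6.18% to 30.8%). TNFα gave 5 higher (2 to 6) and 6 lower (3 to 6), against 27.3% (13% to 47.4%). After GC correction the counts were 0 for TGFβ, 1 for IL-1β and 12 for TNFα (backgrounds 1.12%, 9.49% and 22.4%). By interaction 0 were called for bFGF (0 to 0), where 0% of all genes were (0% to 0.00397%). For TGFβ 5 negative interactions were called (0 to 7) and 0 positive (0 to 1), against 4.51% (0.717% to 10.1%). For IL-1β there were 5 negative (0 to 6) and 0 positive (0 to 1), against 7.71% (2.37% to 16.9%), and for TNFα 3 positive (0 to 4) and 4 negative (4 to 6), against 16.1% (5.39% to 28.8%). After GC correction the interaction counts were 0 for TGFβ, 0 for IL-1β and 5 for TNFα (backgrounds 0.717%, 3.79% and 11.9%).

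Against no ligand, TGFβ gave 10 higher (8 to 11) and 3 lower (3 to 4) of the cascade genes in LacZ, where 36.9% of all genes were called (25.9% to 59.2%). In iCre it gave 9 higher (7 to 10) and 6 lower (3 to 7), against 37.4% (27.0% to 63.1%). IL-1β gave 5 higher (2 to 12) and 1 lower (1 to 1) in LacZ, against 20.7% (9.22% to 37.5%). Its counts in iCre were 5 higher (1 to 8) and 4 lower (1 to 7), against 16.3% (6.85% to 33.8%), and 3 in all after GC correction (background 9.61%). TNFα gave 7 higher (4 to 10) and 0 lower (0 to 5) in LacZ, against 21.3% (10.5% to 39.0%), and 6 higher (4 to 8) and 5 lower (3 to 6) in iCre, against 27.0% (14.0% to 47.7%).

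Another list held 24 other genes of ERK output, among them other phosphatases, *Spred3*, *Etv1*, *Fosl1* and *Ccnd1*, of which 23 were tested and *Spry3* was not. With bFGF in LacZ 9 of the 23 were called, all higher, against 11.6% of all genes, with a median log2 fold change of 0.82. *Fosl1*, for an AP-1 subunit, rose from 5.97 ± 3.58 to 36.4 ± 11.3 CPM (log2 fold change 2.64 ± 0.38, edgeR adjusted p = 0.00293). *Etv1*, the remaining PEA3 factor, rose from 14.6 ± 1.24 to 77.8 ± 15.4 CPM (log2 fold change 2.43 ± 0.15, edgeR adjusted p = 0.000132). *Ccnd1*, for cyclin D1, rose from 249.6 ± 114 to 1241 ± 493 CPM (log2 fold change 2.33 ± 0.41, edgeR adjusted p = 0.00709). The count was 5 without replicate 3 or 4, all higher (backgrounds 1.32% and 2.48%). It was 14 without replicate 2, of which 13 were higher and 1 lower (background 18.2%), and 16 in the model with replicate number, of which 12 were higher and 4 lower (background 27.3%). DESeq2 called 14, of which 11 were higher and 3 lower (background 18.8%). In iCre 4 were called with bFGF, all higher, led by *Ccnd1* (1.99 ± 0.33), *Etv1* (1.59 ± 0.20) and *Spred3* (0.94 ± 0.18), where 2.42% of all genes were called. That count was 0 without replicate 1, 3 or 4, as for all genes, 12 without replicate 2 (10 higher and 2 lower, background 12.7%) and 15 in the model with replicate number (11 higher and 4 lower, background 16.7%). DESeq2 called 11, of which 10 were higher (background 8.09%), and 1 fit of all 40 libraries called 8 (background 6.04%).

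Between the viruses 0 of the 23 output genes were called unstimulated and 0 with bFGF by edgeR, with 10 and 4 at an unadjusted p under 0.05 (backgrounds 14.0% and 10.3%). With the replicate number in the model 15 were called unstimulated, 14 of them higher in iCre, and 14 with bFGF, 12 of them higher (backgrounds 14.5% and 13.9%). DESeq2 called 7 and 2 (backgrounds 5.43% and 1.95%). The remaining counts again carry their range over the 12 alternatives, and the shares of all genes are those given for the cascade list. With TGFβ 4 were higher in iCre (0 to 7) and 1 lower (0 to 2), IL-1β gave 4 (2 to 8) and 2 (1 to 6), and TNFα gave 12 (7 to 13) and 4 (1 to 6). After GC correction 0, 6 and 14 were called (backgrounds 1.12%, 9.49% and 22.4%). By interaction 0 were called for bFGF (0 to 0). For TGFβ 1 negative interaction was called (1 to 2) and 0 positive (0 to 0), and for IL-1β 2 negative (1 to 6) and 0 positive (0 to 2). For TNFα 1 was positive (0 to 7) and 2 negative (0 to 6), and with the replicate number in the model 7 and 4 were (background 25.1%).

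TGFβ against no ligand gave 6 higher (6 to 10) and 3 lower (2 to 5) of the output genes in LacZ, and 7 (3 to 8) and 6 (4 to 11) in iCre. IL-1β gave 12 higher (5 to 16) and 0 lower (0 to 3) in LacZ, and 4 (2 to 13) and 0 (0 to 4) in iCre. Without replicate 2 the IL-1β counts were 19 in LacZ (background 23.4%) and 11 in iCre (background 18.1%), and without replicate 1 or 3 it was 6 in LacZ (backgrounds 13.6% and 9.52%). TNFα gave 10 higher (7 to 13) and 1 lower (0 to 3) in LacZ, and 9 (5 to 14) and 1 (0 to 2) in iCre.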

How the data were processed

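RNA was sequenced as single-end reads from polyA RNA of 40 libraries, 4 in each of 10 groups. The deposited values are raw read counts per gene, which the authors made with FastQC 0.10.1 (per the labels), STAR on mm10 and HTSeq 0.10.0, without normalization. The annotation release and strand setting are not given in the sources used here, and labels and methods name different library kits. The labels do not say whether replicates came from separate animals, the study describes 4 male biological replicates per group, and p-values measure the spread between these libraries.

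Groups came from the sample titles. Genes with at least 10 counts over the 40 libraries (25210) were tested with edgeR 4.0.16 (TMM, quasi-likelihood test, R 4.3.3), fitting only the groups compared, with Benjamini-Hochberg adjustment over all genes and a threshold of 0.05. Interactions used 16 libraries. The standard error is the log2 fold change divided by the square root of F. CPM used TMM factors over the 40 libraries. Gene positions, exon length and GC content came from GENCODE M21 (GRCm38). The GC correction subtracted a spline with 5 degrees of freedom fitted per library to genes of at least 1 CPM. Alternatives were DESeq2 1.42.0, RLE scaling, other filters, a replicate block, a GC correction, both together, 1 fit of all libraries, a fold limit and leaving out each replicate number. Scripts were tested on simulated data. Total counts set the counting error, and reads without molecular identifiers are not independent molecules.

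The numbers pair the samples: in 52 of 52 pairs of libraries from groups compared, deviations from the group mean correlated best with the same number, the lowest r being 0.29 and the median 0.62. Blocked values are given where they change a call among the 10 genes, and for the 2 further lists for bFGF and between the viruses unstimulated and with bFGF, and elsewhere for these lists as part of the range over the alternatives.

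Named were the 10 genes, from each of 2 further lists up to 3 called genes per direction, by size of the bFGF response in LacZ and in iCre, the 3 genes most like *Dusp6*, *Spry2* and *Etv5*, and *Map3k7*. The members and lists were chosen with earlier results of these data known.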

Additional observations from a re-analysis of the deposited data

Results flagged for a closer look

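Of 100 gene and group combinations, 8 held a library far from the other 3, its gap to the nearest of them, divided by the range of the 4, being above Dixon's critical value, where chance gives about 1 in 20. Of these libraries 4 were replicate 2, namely *Dusp5* (9.66 CPM), *Dusp6* (15.0 CPM) and *Spred1* (145.7 CPM) as the highest unstimulated LacZ library, and *Dusp4* (53.2 CPM) as the lowest iCre library with TNFα. Replicate 1 stood apart for *Dusp5* in LacZ with bFGF, where it was lowest at 7.40 CPM, and for *Spry1*, where it was highest in LacZ with bFGF at 163.5 CPM and in iCre with TNFα at 42.5 CPM. Replicate 4 was the highest *Spry4* library in iCre with TGFβ, at 23.6 CPM.

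The response to a ligand differed between iCre and LacZ fibroblasts in 4 of 40 interaction tests. *Spred1* had a log2 interaction of -1.45 with TGFβ and -0.80 with IL-1β, *Spred2* one of -0.60 with IL-1β and *Etv4* one of 1.92 with TNFα. Over all genes 0% were called by interaction for bFGF, 4.51% for TGFβ, 7.71% for IL-1β and 16.1% for TNFα. After GC correction *Spred1* with IL-1β and *Etv4* with TNFα were no longer called. Both IL-1β calls were lost without replicate 1, 3 or 4, and that of *Etv4* without replicate 2, 3 or 4. The cause of these differences was not tested.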

How the results depend on the processing

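RLE scaling and the filterByExpr filter kept each count among the 10 genes within 1.5 times its value. With filterByExpr the cascade list went from 6 to 10 for IL-1β in LacZ and from 0 to 1 for bFGF in iCre, and the ERK output list from 3 to 5 for the TNFα interaction, while the shares of all genes went from 20.7% to 37.5%, from 2.42% to 5.28% and from 16.1% to 28.8%. DESeq2 called 8 genes for bFGF, 6 for TGFβ and 5 for IL-1β in iCre, 6 between the viruses unstimulated, 4 between them with TGFβ, and 2 for the TNFα interaction. DESeq2 called 8.09%, 42.1%, 22.3%, 5.43%, 15.8% and 20.6% of all genes in these 6 comparisons. Without a filter IL-1β in iCre gave 3 and its interaction 1, where 14.1% and 5.57% of all genes were called. One fit of all 40 libraries gave 8 for bFGF, 7 for TGFβ and 2 for IL-1β in iCre, 5 between the viruses unstimulated and 4 with TGFβ, and 1 and 2 for the IL-1β and TNFα interactions. That fit called 6.04%, 41.7%, 19.4%, 1.61%, 14.2%, 7.82% and 16.4% of all genes in these comparisons. A log2 fold change of at least 1 left 2, 3 and 0 genes for TGFβ, IL-1β and TNFα in LacZ, 0 for IL-1β in iCre, 1 between the viruses with TGFβ and 0 for the IL-1β interaction. Under that limit 18.5%, 7.72%, 7.95%, 4.0%, 1.60% and 2.02% of all genes were left. GC correction left 0 for IL-1β in iCre, 0 between the viruses with TGFβ, 1 for the IL-1β interaction and 0 for that of TNFα.

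The replicate block added calls for 52 of 170 gene values and ended none. The block also raised the share of all genes called, for example from 2.42% to 16.7% for bFGF in iCre. It gave 7 and 5 for TGFβ and TNFα in LacZ, 9, 7 and 10 for bFGF, TGFβ and IL-1β in iCre, 9, 1 and 10 between the viruses unstimulated, with bFGF and with TGFβ, and 4 for the IL-1β and 4 for the TNFα interaction. The block with GC correction gave 7 and 6 in LacZ, 9, 6 and 8 in iCre, 9, 4 and 7 between the viruses and 3 for the TNFα interaction, where 42.6% and 36.2%, 16.6%, 41.1% and 29.8%, 15.2%, 14.0% and 9.25%, and 21.1% of all genes were called.

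Leaving out each replicate number gave 8 to 10 for bFGF, 2 to 10 for TGFβ, 1 to 8 for IL-1β and 1 to 7 for TNFα in LacZ, and 0 to 9, 2 to 6, 0 to 7 and 3 to 7 in iCre. The shares of all genes were 1.32% to 18.2%, 25.9% to 37.1%, 9.22% to 23.4% and 10.5% to 23.5% in LacZ, and 0% to 12.7%, 27.0% to 40.0%, 6.85% to 18.1% and 14.0% to 25.4% in iCre. Between the viruses it gave 0 to 8 unstimulated, 0 to 0 with bFGF, 0 to 7 with TGFβ, 5 to 6 with IL-1β and 7 to 10 with TNFα, where the shares were 0% to 2.78%, 0% to 1.00%, 2.01% to 12.5%, 6.18% to 16.6% and 13% to 27.1%. For the interactions it gave 0 to 1, 1 to 3, 0 to 5 and 0 to 2, with shares of 0% to 0.00397%, 1.28% to 5.27%, 2.37% to 6.85% and 5.39% to 15.4%.

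Direction reversed only for values that were not called, and none was called in the reversed direction except *Etv5* with TNFα in LacZ without replicate 2 (0.38, edgeR adjusted p = 0.0366). *Etv5* with TNFα in LacZ was 0.0011 by DESeq2, 0.00095 with RLE, 0.068 with the block and 0.066 with block and GC correction. *Spry1* between the viruses with IL-1β was 0.097 with the block and 0.0039 in the fit of all libraries. The *Spry2* interaction with IL-1β was -0.030 by DESeq2, -0.030 with RLE and -0.017 with the block. The *Spred2* interaction with TNFα was -0.0076 by DESeq2, -0.0076 with RLE, -0.074 with GC correction and -0.095 with block and GC correction. Leaving out a replicate, *Etv5* ranged from -0.25 to 0.67 with TGFβ and from -0.16 to 0.38 with TNFα in LacZ. With TGFβ in iCre *Spry1* ranged from -0.35 to 0.45 and *Spry4* from -0.28 to 0.28. Between the viruses *Spry1* ranged from -0.30 to 0.58 unstimulated and from -0.29 to 0.34 with IL-1β, *Spry2* from -0.0016 to 0.22 and *Etv5* from -0.13 to 0.013 with bFGF, and *Spred1* from -0.040 to 0.14 with IL-1β. Interactions ranged from -0.52 to 0.0046 for *Dusp4*, -0.41 to 0.20 for *Dusp5* and -0.86 to 0.062 for *Etv4* with TGFβ, from -0.18 to 0.11 for *Spry2* and -0.19 to 0.22 for *Etv4* with IL-1β, and from -0.12 to 0.14 for *Spred2* with TNFα. The cause of these changes was not tested. *Dusp5* and *Etv4* rested on the fewest reads, with 54 in 1 library of LacZ with TNFα and 67 in 1 of unstimulated LacZ.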
